A study of Mus musculus with 8 samples.

Results

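The genes described here build the cornified envelope, the cross-linked protein shell that replaces the membrane of a dying keratinocyte at the skin surface, together with enzymes and junction proteins of the same epidermal programme. They were chosen as a list of 41 gene symbols matched to array probes through each probe's accession, out of 20145 named genes on the array, with results of these arrays already known. Of the 41, 40 were measured: 39 were matched by symbol, Sprr2a1 through the probes of Sprr2a2, of which it is a listed synonym, and Flg, the gene of filaggrin, matched no probe. Their differences between the groups below are therefore a description of a chosen set, with no test of the set.

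The arrays read total RNA from 4 tumours grown from 4T1 cells infected with an adenovirus carrying PRH and 4 grown from 4T1 cells infected with an empty adenovirus. 4T1 is a mammary carcinoma line of BALB/c mice, and PRH is the homeobox transcription factor encoded by Hhex. In both groups the infection lasted 24 h at a multiplicity of 50, the cells went into the number 3 fat pad of female BALB/c mice of 6 to 8 weeks, and the tumours were taken on day 22. The virus was thus given to the cells before grafting, and the hosts kept their own skin, stroma and immune cells, so a whole tumour holds host RNA as well. The labels give both groups mouse numbers 1, 2, 3 and 5 without saying whether a shared number is a shared animal, and p-values measure only the spread between these 8 samples. The design text names tumour RNA and human arrays, whereas the extraction protocol names endothelial isolates and the probes carry mouse accessions. Luminal keratin Krt18 read 189175, 204175, 219048 and 195052 in the PRH-labelled tumours, against 184041, 220275, 223482 and 220456 in the controls, and the endothelial cadherin Cdh5 read 1673, 1766, 1547 and 1829 in the PRH-labelled tumours, against 2326, 5846, 1327 and 2879 in the controls, so markers of both kinds of cell were present on every array.

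As keratinocytes leave the basal layer they switch on loricrin, involucrin and the small proline-rich (SPRR) and late cornified envelope (LCE) proteins. Transglutaminases cross-link these onto a scaffold of plakins and desmosomes, and lipids are then attached outside. Many of the genes sit side by side in the epidermal differentiation complex, which lies on mouse chromosome 3 and holds 28 of the 40 measured members. The 250 bases before the start of 4 members, 3 with large changes between arrays and 1 LCE gene, show short elements that recur in part of the set. They are given 5′ to 3′ from RefSeq, build GRCm38.p6, with the AP-1 site TGANTCA and the box TATAAA in capitals.
Krtdap: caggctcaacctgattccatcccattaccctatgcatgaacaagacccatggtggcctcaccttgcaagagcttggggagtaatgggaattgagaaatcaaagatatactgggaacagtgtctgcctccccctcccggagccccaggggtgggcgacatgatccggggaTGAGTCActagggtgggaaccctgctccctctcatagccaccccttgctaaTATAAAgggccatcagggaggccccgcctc
Lor: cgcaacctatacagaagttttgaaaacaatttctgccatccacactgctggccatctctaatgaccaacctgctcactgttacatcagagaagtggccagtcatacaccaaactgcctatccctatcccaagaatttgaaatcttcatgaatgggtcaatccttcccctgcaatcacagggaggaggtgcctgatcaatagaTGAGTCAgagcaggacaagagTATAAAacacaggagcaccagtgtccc
Sprr1a: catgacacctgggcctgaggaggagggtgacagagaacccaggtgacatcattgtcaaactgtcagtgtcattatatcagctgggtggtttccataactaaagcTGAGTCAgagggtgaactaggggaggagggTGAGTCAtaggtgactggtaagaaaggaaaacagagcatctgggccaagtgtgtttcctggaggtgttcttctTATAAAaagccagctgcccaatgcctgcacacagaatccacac
Lce3c: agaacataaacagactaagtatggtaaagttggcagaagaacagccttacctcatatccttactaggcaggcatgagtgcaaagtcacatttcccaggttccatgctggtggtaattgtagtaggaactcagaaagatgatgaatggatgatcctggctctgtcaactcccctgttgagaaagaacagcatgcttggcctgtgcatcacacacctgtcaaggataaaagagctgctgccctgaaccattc
These windows are chr7:30787655-30787904 (plus strand) for Krtdap, chr3:92083143-92083392 (minus strand) for Lor, chr3:92485882-92486131 (minus strand) for Sprr1a and chr3:92944236-92944485 (plus strand) for Lce3c. The AP-1 letters begin 81 bases before the start in Krtdap, 48 in Lor, and 146 and 116 in Sprr1a, and TATAAA begins 30, 27 and 43 bases before the start of the same genes. Neither is present in the Lce3c window. AP-1 letters on either strand were found in 11 of the 35 members with a promoter entry (31.4%), among them Ivl, Flg2, Rptn, Sbsn, Sprr1b, Sprr2d, Sprr2e and Sprr2h, against 6.75% of all 32851 promoters. TATAAA on the gene's strand was found in 14 of 35 (40%), against 7.59% of all. No LCE gene was among the AP-1 matches, and Lce1d and Lce1m were the only LCE genes among the TATAAA matches. The Krüppel-like motif GGGTG, on either strand, was in 19 of 35 (54.3%) against 52.0% of all, and the grainyhead motif AACNGGTT, on either strand, was in Rptn alone (2.86%) against 1.79%. No one of the 4 patterns contains another, and a match is only a match of letters. A member was counted if any of its promoter entries matched, whereas the shares of all promoters are per entry. Several of the matching members are SPRR genes, which are close copies and not separate instances.

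Values below are the scanner's processed intensity, always for mouse numbers 1, 2, 3 and 5 in that order, and differences are in log2 of that signal after dividing by the array's 75th percentile. That percentile was 679 to 762 in PRH-labelled tumours and 1003 to 1283 in controls, and 72.2 to 73.9% of probes in PRH-labelled tumours and 64.2 to 69.8% in controls were well above background. Among 34543 tested items, genes or unnamed probes, the median difference was 0.29 and 17.2% passed as higher and 8.67% as lower in PRH-labelled tumours, 25.9% in all (limma, adjusted p under 0.05). Hhex itself read 207, 276, 201 and 228 in the PRH-labelled tumours, against 692, 1020.2, 669 and 588 in the controls, a difference of -1.09 (SE 0.15, limma adjusted p = 0.00686). The gene named by the treatment was thus lower, with no overlap, in the tumours labelled with it, which are called PRH-labelled for that reason. The labels do not say whether the mouse Hhex probe can read the PRH of the virus. The PRH-labelled arrays filled 1 slide column and the controls the other, so column and group cannot be told apart.

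The 40 genes were mostly high in 3 of the 4 PRH-labelled tumours and in 1 of the 4 controls. The array numbered 5 was the lowest of the PRH-labelled tumours for 33 of 40 genes, against 21.4% of all items, and the control numbered 5 was the highest control for 35 of 40, against 17.7% of all items. PRH-labelled tumour 1 was the highest of its group for 34 of 40, against 29.1%. The shares of all items cover tested items only, whereas 9 of the 40 genes were not tested. The median SD over the 4 tumours of a group was 1.69 in PRH-labelled tumours and 1.35 in controls for these genes, and 0.26 in PRH-labelled tumours and 0.39 in controls for all items. In bulk RNA, fewer cells of a type and less RNA per cell cannot be told apart.

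**Figure D1:**
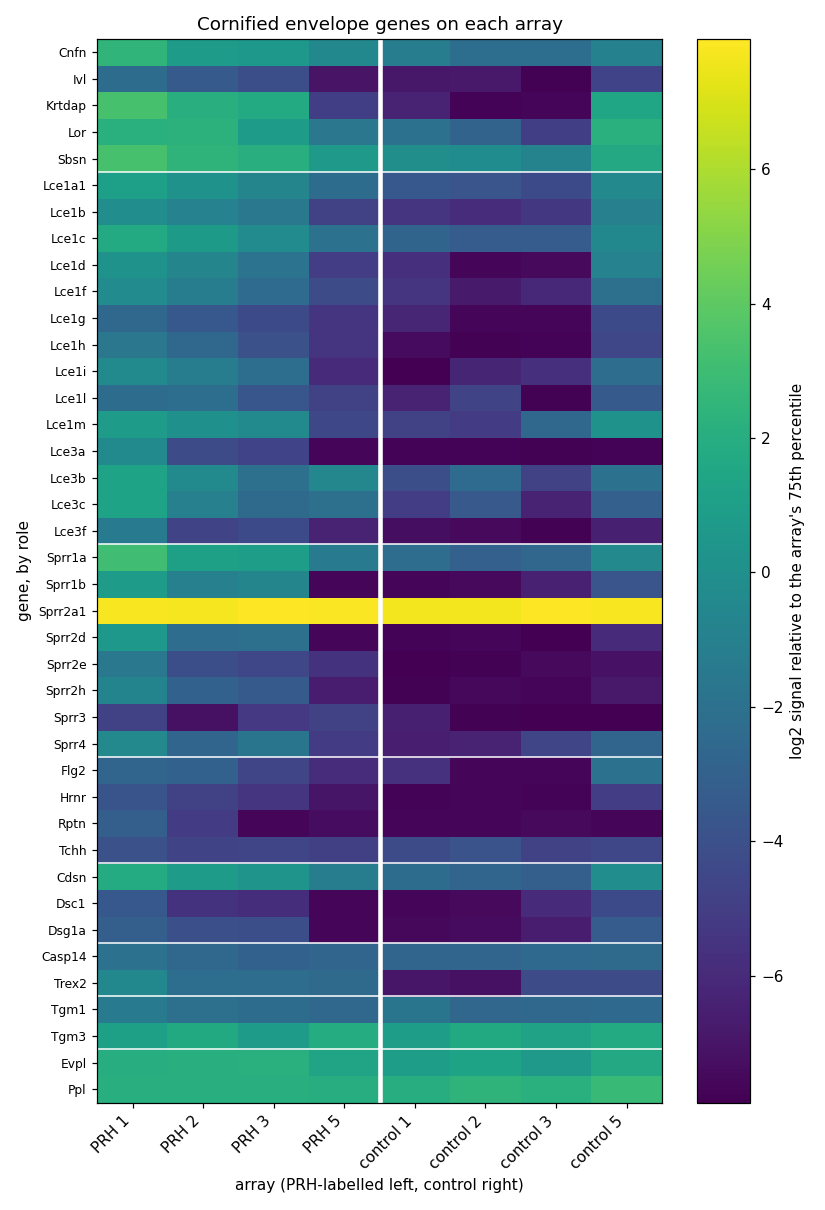
Each cell is the log2 signal of 1 gene (rows, grouped by role between the white lines) on 1 array (columns, PRH-labelled left of the thick line and controls right), relative to that array's 75th percentile. PRH-labelled 1, 2 and 3 and control 5 are bright for most precursors, LCE and SPRR genes, whereas Tchh, Casp14, Tgm1, Tgm3, Evpl, Ppl and the brightest Sprr2a1 probe keep nearly the same shade throughout.

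Across the 40 genes the difference was positive in 37, with a median of 2.52, and 31 genes passed the detection filter, with a median of 2.50. Of those 31, 5 passed the test as higher in PRH-labelled tumours and 0 as lower, which is 16.1% of them against 17.2% of all items higher, 8.67% lower and 25.9% either way. The share of 16.1% is near that of all items. The groups did not overlap, with PRH-labelled tumours higher, for 7 of 40 genes (17.5%), against 20.1% of all items. The overlap shares of all items, here and in the next sentences, cover only items that passed the filter. Of the 7 genes, Lce3a, Lce3f, Sprr2e and Sprr2h were below it, and only Cnfn, Lce3c and Trex2 were tested, so the bases are unlike. PRH-labelled tumours were lower without overlap for 0 of 40, against 11.3% of all items. On the signal before division by the 75th percentile, 4 of 40 were higher without overlap, against 7.13% of all items, and 2 lower, against 32.3%. The 9 genes below the filter were Lce3a, Lce3f, Sprr2d, Sprr2e, Sprr2h, Sprr3, Dsc1, Hrnr and Rptn. With no filter 4 of 40 passed as higher, against 12.4% of all items.

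**Figure D2:**
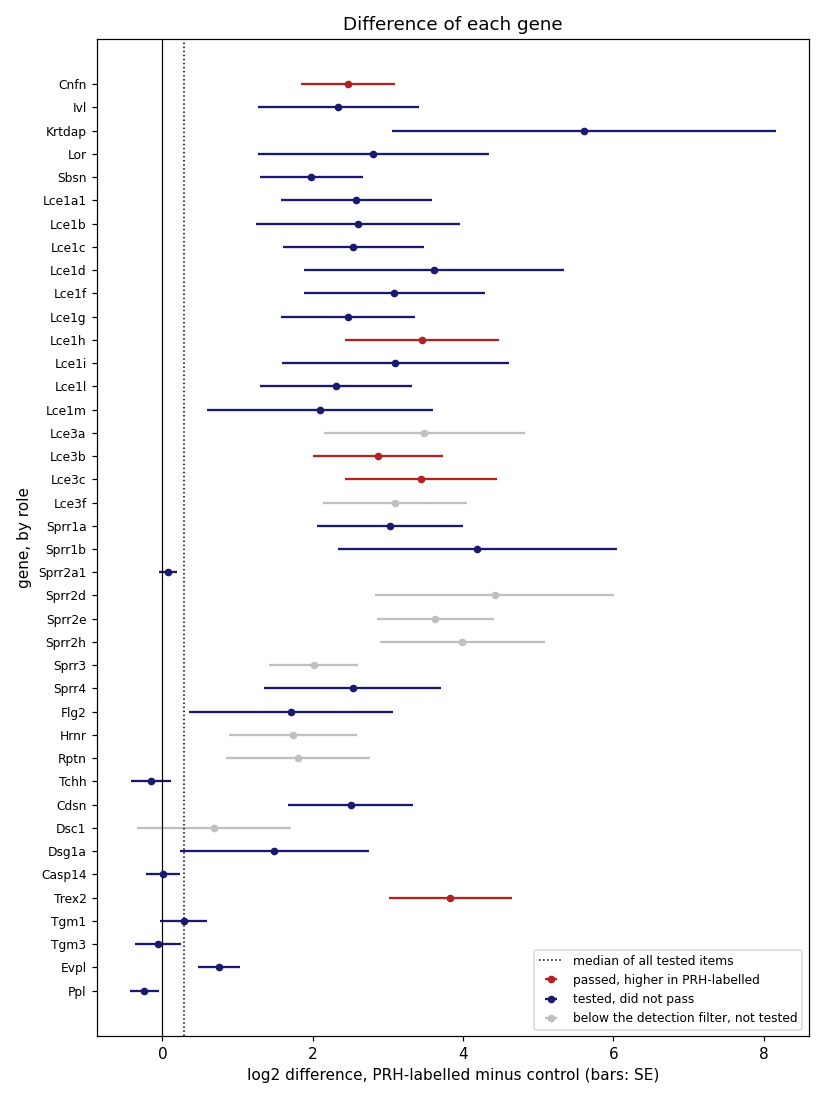
Log2 difference between PRH-labelled and control tumours (x axis) for each gene (y axis, by role), with its standard error as a bar, from the fit without the detection filter for the grey genes. The 5 genes that passed are red, 37 of 40 points lie right of 0, and Krtdap has the widest bar.

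The 5 envelope precursors all had positive differences, of 1.98 to 5.61, and 1 passed. Krtdap, a small secreted protein of differentiating keratinocytes, read 6746, 3152, 2396 and 24.4 in the PRH-labelled tumours, against 12.2, 5.98, 5.46 and 2839 in the controls. PRH-labelled 1, 2 and 3 and control 5 were thus at 2396 units or more, the other 4 arrays were at 24.4 or less, and the groups overlapped. Its difference was 5.61 (SE 2.55), the largest of the 40 genes, and did not pass. Lor, loricrin, the main glycine-rich protein of the envelope, read 2971, 3652, 1187 and 249 in the PRH-labelled tumours, against 250.3, 175, 35.4 and 4485 in the controls. Control 5 had the highest Lor signal of all 8 arrays before scaling, and the difference of 2.81 (SE 1.54) did not pass.
Cnfn, cornifelin, a further envelope component, read 3768, 1379.7, 1013 and 537 in the PRH-labelled tumours, against 438, 281, 241 and 526 in the controls. Every PRH-labelled tumour lay above every control, though PRH-labelled 5 and control 5 were close. The relative log2 signal was 0.85 ± 1.23 in PRH-labelled tumours and -1.62 ± 0.65 in controls (SD, n = 4 each), and the difference of 2.47 (SE 0.62) passed. Sbsn, suprabasin, of the layers above the basal one, and Ivl, involucrin, an early scaffold protein, had differences of 1.98 (SE 0.69) and 2.34 (SE 1.07), and neither passed. For both, control 5 was above PRH-labelled 5.

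All 14 LCE genes, late products of the complex that are cross-linked into the envelope, had positive differences, of 2.09 to 3.61. Lce1h, Lce3b and Lce3c passed, 9 were tested and did not, and Lce3a and Lce3f were below the filter. Lce3c read 1695, 382, 128 and 181 in the PRH-labelled tumours, against 30.6, 116, 13.1 and 121 in the controls. All PRH-labelled tumours were above all controls, and the difference was 3.43 (SE 1.01). Lce3b read 1636, 591, 166 and 512 in the PRH-labelled tumours, against 60.2, 250.2, 37.5 and 263 in the controls. Here PRH-labelled 3, the lowest of its group, was below control 5 before and after scaling, so that the groups overlapped although the difference of 2.87 (SE 0.86) passed.
Lce1h read 225, 125, 44.7 and 16.4 in the PRH-labelled tumours, against 5.94, 5.75, 5.01 and 43.1 in the controls. Control 5 was the exception and the only control well above background, and lay above PRH-labelled 5. The difference was 3.45 (SE 1.03). Lce1d, with the largest LCE difference, 3.61 (SE 1.72), read 805, 469, 195 and 23.3 in the PRH-labelled tumours, against 18.5, 6.67, 5.93 and 548 in the controls and did not pass. Control 5 exceeded PRH-labelled 3 and 5 for this gene, and before scaling PRH-labelled 2 as well.
The arrays numbered 5 differed between the listed Lce1 and Lce3 genes. For all 10 listed Lce1 genes PRH-labelled 5 was below control 5, with log2 differences of -4.63 to -0.98, whereas for Lce3b and Lce3c it was above, with 1.38 and 0.99. For Lce3a and Lce3f, dim on both arrays, it was above by 0.03 and 0.15 after scaling but below before scaling. The contrast thus rests on Lce3b and Lce3c and on 1 array of each group. It was seen in the values, so it has no test. It does not extend to every Lce1 gene: of those outside the list, Lce1e differed by -1.74 between the arrays numbered 5, and Lce1a2 by 0.12. Lce3a read 527, 39.9, 26.7 and 3.66 in the PRH-labelled tumours, against 4.67, 6.09, 4.97 and 4.81 in the controls and was well above background on no control and on 3 PRH-labelled arrays. Its mean was 4.05-fold higher in PRH-labelled tumours, taking the dim controls at a raised level. That level was the lowest signal read well above background on the array, or the probe's own where that was higher. Dim PRH-labelled readings kept their own value, so this raised-control fold is not a strict lower bound. Lce3f read 259.9, 30.7, 33.9 and 9.17 in the PRH-labelled tumours, against 6.28, 7.11, 4.90 and 11.1 in the controls, and its raised-control fold was 4.24. For both, PRH-labelled 5 was above all 4 controls only after division by the 75th percentile.
Lce1b, printed in 10 spots per array, shows how far the dim readings can be trusted. The spots on 1 array spread by a log2 SD of 0.11 to 0.19 on PRH-labelled 1, 2 and 3 and 0.07 on control 5, but by 2.21 on PRH-labelled 5 and 0.68 to 1.76 on controls 1, 2 and 3. A dim value of a single spot therefore has little order among the low arrays.

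The SPRR proteins are proline-rich cross-bridges of the envelope, made in quantity in stressed and internal epithelia. Sprr1b, with the largest tested difference among them, 4.19 (SE 1.86), read 1227, 384, 429 and 3.66 in the PRH-labelled tumours, against 5.09, 7.19, 12.6 and 75.5 in the controls. It was high in PRH-labelled 1, 2 and 3, intermediate in control 5 and at the floor elsewhere, and did not pass. Sprr1a read 5743, 1618, 1398 and 278 in the PRH-labelled tumours, against 211, 158, 169 and 746 in the controls and differed by 3.03 (SE 0.97), and Sprr4 differed by 2.53 (SE 1.18), neither passing.
Sprr2d read 980.2, 159, 170.3 and 3.66 in the PRH-labelled tumours, against 4.76, 6.35, 4.71 and 16.7 in the controls, with PRH-labelled 1, 2 and 3 high and every other array at most 16.7 units. It was well above background on no control, and its raised-control fold was 10.1, with PRH-labelled 5 kept at 3.66. Sprr2e read 230.2, 45.7, 29.8 and 15.99 in the PRH-labelled tumours, against 4.37, 5.71, 6.16 and 7.22 in the controls, without overlap, and its raised-control fold was 5.06. The raised-control folds were 7.06 for Sprr2h and 1.71 for Sprr3. Sprr2h read 403, 96.4, 65.2 and 7.501 in the PRH-labelled tumours, against 4.58, 6.77, 5.60 and 8.86 in the controls, so that PRH-labelled 5 was below control 5 before scaling and above it after. Sprr3, dim throughout, read 26.3 in PRH-labelled 5 and 25.01 in PRH-labelled 1, and after scaling PRH-labelled 1 was the higher.
Sprr2a1, read by probes assigned to Sprr2a2, depended on the probe. Its brightest probe read 149905, 164445, 165381 and 174151 in the PRH-labelled tumours, against 199149, 261236, 265742 and 217865 in the controls, a difference of 0.07 (SE 0.12). Its second probe read 18449, 3210.0, 4366 and 20.8 in the PRH-labelled tumours, against 4.53, 11.3, 4.70 and 1284 in the controls, the same arrangement as Sprr1b, with a difference of 6.61, and the third differed by 0.86. The letters of the probes were not used here, and members of the LCE and SPRR families are close copies, so a probe may read its relatives too.

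The S100-fused proteins were dim. Flg2, a relative of filaggrin, read 104, 95.5, 28.9 and 12.9 in the PRH-labelled tumours, against 19.9, 6.30, 5.28 and 254 in the controls. Control 5 was the highest of all arrays, and the difference was 1.71 (SE 1.36). Hrnr, hornerin, and Rptn, repetin, had differences of 1.74 and 1.80 below the filter. Rptn read 79.7, 22.9, 3.48 and 4.57 in the PRH-labelled tumours, against 5.06, 6.55, 6.09 and 5.09 in the controls. Its difference rested on PRH-labelled 1 and 2, and its raised-control fold was 1.40. Tchh, trichohyalin, a protein of the hair follicle's inner root sheath, differed by -0.15 (SE 0.27) and read 25.8 to 42.9 in PRH-labelled tumours and 37.8 to 88.7 in controls.

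Trex2, a DNA exonuclease of differentiated keratinocytes, read 479, 171, 151 and 138 in the PRH-labelled tumours, against 8.17, 9.05, 55.1 and 53.3 in the controls. All PRH-labelled tumours were above all controls. The relative log2 signal was -1.83 ± 0.89 in PRH-labelled tumours and -5.66 ± 1.60 in controls (SD, n = 4 each), and the difference of 3.83 (SE 0.82) passed. The probe was well above background on 4 PRH-labelled arrays and on 2 controls, so the size of the difference rests in part on readings at the floor. Casp14, the caspase of the cornified layer that acts on filaggrin, did not share this, reading 170.0, 123, 88.5 and 113 in the PRH-labelled tumours, against 152, 193, 191 and 191 in the controls, a difference of 0.00 (SE 0.22).
Of the junction genes, Cdsn and Dsg1a had the arrangement of most precursors. Cdsn, corneodesmosin, which holds the outermost cells together, read 2473, 1327, 859 and 318 in the PRH-labelled tumours, against 206, 190.1, 125 and 922 in the controls. PRH-labelled 1 and 2 were the highest, control 5 was near PRH-labelled 3, and the difference of 2.50 (SE 0.83) did not pass. The desmosomal cadherins Dsg1a and Dsc1 differed by 1.49 (SE 1.26) and, below the filter, 0.69, and both were well above background in control 5 as the only control. For Dsc1, PRH-labelled 2 and 3 read 16.2 and 12.5, below control 3 at 17.2 before scaling.
The cross-linking enzymes and the plakin scaffold varied little. Tgm1, the membrane-bound transglutaminase, read 258, 188, 141 and 124 in the PRH-labelled tumours, against 299.8, 202, 183 and 179.7 in the controls, a difference of 0.28 (SE 0.31). Tgm3, a further epidermal transglutaminase, differed by -0.06 (SE 0.31), and by 1.20 with its dimmer probe. Evpl, envoplakin, read 2646, 3249, 3168 and 1956 in the PRH-labelled tumours, against 2020.0, 3181, 1648 and 3206 in the controls, with overlap. It differed by 0.76 (SE 0.28) and Ppl, periplakin, by -0.24 (SE 0.19). Before scaling, Ppl and the brightest Sprr2a1 probe were lower in every PRH-labelled tumour than in every control. Neither transglutaminase and neither plakin passed, and the signs of Tgm1 and Tgm3, of Casp14 and of the brightest Sprr2a1 probe turned under at least 1 other scaling. With Tchh, these genes go against a single programme label for the set, since they did not share the arrangement of Krtdap and Lor.

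Pairing the arrays by mouse number shows the same thing gene by gene. PRH-labelled tumours were higher for 40, 37 and 35 of 40 genes within numbers 1, 2 and 3, with median differences of 4.58, 3.51 and 3.07, but for 12 of 40 within number 5, with a median of -1.06. The medians over all items in the same pairs were 0.18, 0.36, 0.34 and 0.30, so the median over all items kept its sign at number 5. Krtdap differed by 9.67, 9.79 and 9.41 within numbers 1, 2 and 3 and by -6.44 within number 5. Trex2 and Cnfn kept 1 direction, with 6.44, 4.99, 2.09 and 1.80 for Trex2 and 3.67, 3.05, 2.71 and 0.45 for Cnfn. On Hhex and on the 75th percentile, both arrays numbered 5 lay with their own group. For the percentile, group cannot be told apart from slide column. Throughout, mouse number cannot be told apart from slide row. Why the arrays numbered 5 differed from the others was not tested.

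**Figure D3:**
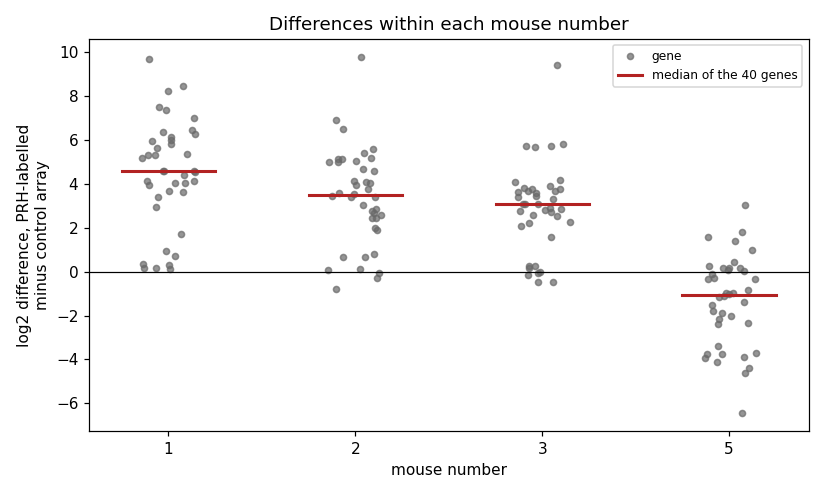
Log2 difference of each of the 40 genes (points, spread sideways for legibility) between the PRH-labelled and the control array of the same mouse number (x axis), with the median as a red line. The medians are 4.58, 3.51 and 3.07 for numbers 1, 2 and 3, and -1.06 for number 5, where 28 genes lie below 0.

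The count of genes that passed turned on single arrays. Without control 5, 14 of the 31 passed as higher, against 12.3% of all items: Lor, Cnfn, Sbsn, Krtdap, Lce1a1, Lce1c, Lce1d, Lce1f, Lce1g, Lce1h, Lce3b, Sprr1a, Trex2 and Cdsn. The detection filter was set on all 8 arrays and was not applied anew when arrays were left out. Krtdap, Lce1d, Lce1f, Lce1g and Lce1h were well above background on 1 control only, and control 5 was their highest control. Without control 5 they were thus compared with dim control readings, and they stayed in the test through the arrays where they are high. Without PRH-labelled 5, 9 passed, against 12.5% of all items. Without PRH-labelled 1, 2 or 3 the counts were 2, 1 and 4, against 12.0%, 13.5% and 14.9% of all items, and without control 1, 2 or 3 they were 2, 1 and 1, against 19.4%, 12.3% and 14.4%. Trex2 passed in each of these 8 fits. Without both arrays numbered 5, an alternative chosen after seeing the data, only Krtdap passed, when 0.0203% of all items did, although the median difference of the 31 was 3.89. Over all alternatives, Trex2 lost its call in 1 of 16, Cnfn in 4 of 17, Lce3b in 12 of 17 and Lce1h and Lce3c in 13 of 16 each. With mouse number as a block, 4 passed (Cnfn, Lce3b, Lce3c and Trex2), against 26.9% of all items, and Lce1h did not (limma adjusted p = 0.0767).

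**Figure D4:**
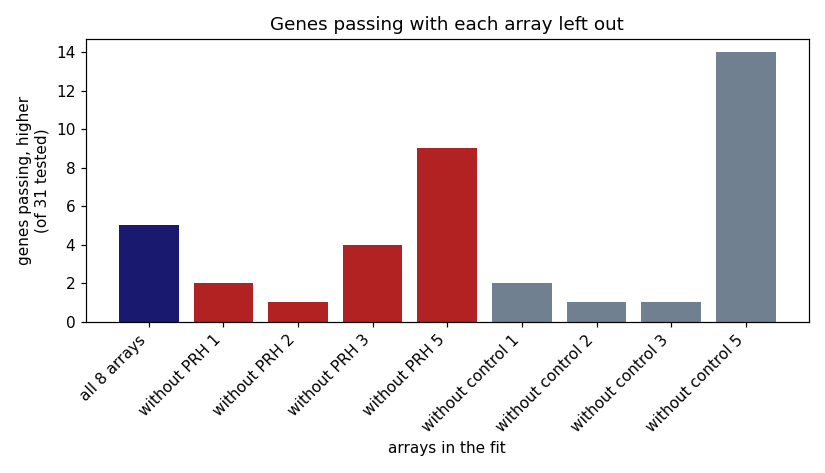
Number of the 31 tested genes that passed as higher in PRH-labelled tumours (y axis) with all 8 arrays and with each array left out (x axis; red for a PRH-labelled and grey for a control array left out). The bar reaches 14 without control 5 and 9 without PRH-labelled 5, and stays between 1 and 4 for the other 6 arrays.

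Other genes of the programme were taken from lists of the same epidermal functions. The median difference of 14 transcription factors, all tested, was -0.06. Grhl3, a grainyhead factor needed for the skin barrier, read 333, 207, 194 and 166 in the PRH-labelled tumours, against 143, 83.6, 84.5 and 126 in the controls, higher in every PRH-labelled tumour with a difference of 1.62 (SE 0.34, limma adjusted p = 0.0134). Lower were Klf4, a barrier factor, at -0.75 (SE 0.18, limma adjusted p = 0.0214), Cebpa at -0.84 (SE 0.15, limma adjusted p = 0.00907), and Maf, which acts in keratinocytes and in macrophages, at -1.26 (SE 0.19, limma adjusted p = 0.00696). For each of these named factors the groups did not overlap. Klf4 lost its call in 5 of 17 alternatives, and Grhl3, Cebpa and Maf in 1 each.
Of 15 lipid barrier genes, 14 were tested, and 5 passed as higher and 1 as lower, with a median of 0.77. Abca12, the lipid transporter of lamellar granules, differed by 2.51 (SE 0.73, limma adjusted p = 0.0399), Lipn, an epidermal lipase, by 1.67 (SE 0.28, limma adjusted p = 0.00796), Cyp4f39, a fatty acid hydroxylase, by 1.60 (SE 0.28, limma adjusted p = 0.00876), and Slc27a4, a fatty acid transporter, by 0.85 (SE 0.14, limma adjusted p = 0.0074). Smpd1, acid sphingomyelinase, differed by 0.42 (SE 0.13, limma adjusted p = 0.0449), and by -0.06 with median centring. Ugcg, glucosylceramide synthase, was lower, at -0.81 (SE 0.13, limma adjusted p = 0.00744). Abca12 was well above background on 4 PRH-labelled arrays and 1 control. It lost its call in 13 of 16 alternatives, without a filter among them (limma adjusted p = 0.0544), and Smpd1 in 11 of 17, while the other 4 lost theirs in 1 or 2. Elovl4, which extends very long fatty acids, did not pass but read 1309.8, 599, 766 and 12.8 in the PRH-labelled tumours, against 19.5, 20.3, 21.1 and 765 in the controls, the arrangement of Krtdap.
Of 18 proteases and inhibitors, all tested, 3 passed as higher and 0 as lower, with a median of 0.50: Ctsd at 0.55 (SE 0.16, limma adjusted p = 0.0372), or -0.07 as the mean of its probes, Serpinb2 at 1.39 (SE 0.41, limma adjusted p = 0.0402) and Serpinb12 at 1.44 (SE 0.22, limma adjusted p = 0.00708). The second Ctsd probe, well above background on every array, went the other way. It differed by -0.68 and was lower in every PRH-labelled tumour than in every control. Of 21 other envelope and junction genes, 18 were tested and the desmogleins Dsg3, at 1.68 (SE 0.51, limma adjusted p = 0.0476), and Dsg2, at 0.92 (SE 0.26, limma adjusted p = 0.0389), passed as higher, with a median of 0.54. Dsg3 was well above background on 4 PRH-labelled arrays and 2 controls. Its second probe, well above background on no array, differed by 0.18. Serpinb2 and Dsg3 lost their call in 13 alternatives, Ctsd in 12, Dsg2 in 9 and Serpinb12 in 1. Crct1, a gene inside the chromosome 3 complex, read 3068, 1520.1, 876 and 28.7 in the PRH-labelled tumours, against 6.98, 10.1, 20.5 and 1039 in the controls, and Calm4, a calmodulin-like skin protein, read 4374, 1625, 1062 and 9.02 in the PRH-labelled tumours, against 13.6, 12.1, 5.94 and 1505 in the controls. Neither passed, and in both the high arrays were again PRH-labelled 1, 2 and 3 and control 5.
Between Lor and Tchh on chromosome 3 lie 16 further named genes with a probe, a stretch looked at after the data were seen. Their median difference was 1.44, 13 were positive, and 1 of the 9 tested, Prr9, passed, at 1.79. The 28 members on chromosome 3 had a median of 2.70 and the 12 elsewhere 1.12.

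Several keratin genes that mark keratinocytes had the same arrangement over the arrays, and Krt2 did not. Krt5, of the basal layer, read 19604, 9871, 9451 and 526 in the PRH-labelled tumours, against 2335, 328, 273 and 7964 in the controls. Krt1, of the layers above it, read 1088, 1171, 341 and 71.7 in the PRH-labelled tumours, against 46.3, 33.7, 14.1 and 1437 in the controls, and differed by 3.08 (SE 1.58) without passing. Krt6a, of wounded and hyperproliferative epidermis, read 7384, 1111, 1816 and 47.6 in the PRH-labelled tumours, against 45.1, 19.7, 10.9 and 392 in the controls. For all 3, control 5 was the highest control and PRH-labelled 5 the lowest of its group. Krt2, a further keratin above the basal layer, read 426, 253, 334 and 419 in the PRH-labelled tumours, against 413, 241, 319 and 225 in the controls, with control 5 the lowest control.
Of 7 basal markers 1 passed as higher, Krt14, at 1.93 (SE 0.45, limma adjusted p = 0.0192), and their summed signal, in units of the 75th percentile, was 76.4 to 157 in PRH-labelled tumours and 48.1 to 86.1 in controls. Of 4 suprabasal markers none passed, and Krt10 differed by 0.17 (SE 0.78), or -0.32 with median centring, with sums of 1.01 to 4.07 in PRH-labelled tumours and 0.880 to 5.35 in controls. The second Krt10 probe, well above background on every array, differed by 1.84, with overlap. It read 889, 1069.6, 503 and 175 in the PRH-labelled tumours, against 164, 114, 85.2 and 1651 in the controls. Of 4 hyperproliferative markers 2 passed, Krt6b at 4.76 (SE 1.46, limma adjusted p = 0.0476) and Krt16 at 2.93 (SE 0.85, limma adjusted p = 0.04), with sums of 3.17 to 98.5 in PRH-labelled tumours and 1.23 to 5.76 in controls. Of 6 hair follicle markers, 5 tested, none passed, with sums of 1.83 to 5.10 in PRH-labelled tumours and 1.14 to 3.68 in controls. Of 5 melanocyte markers, 4 tested, none passed, with sums of 0.494 to 1.69 in PRH-labelled tumours and 0.213 to 0.527 in controls. Krt25 and Tyrp1 were well above background on no array.
Of 5 luminal markers Krt18 passed, at 0.52 (SE 0.14, limma adjusted p = 0.0274), although its signals before scaling overlapped, with sums of 323 to 393 in PRH-labelled tumours and 247 to 308 in controls. Krt8, its partner keratin, was lower in every PRH-labelled tumour than in every control, at -0.44 (SE 0.16), and did not pass. Of 5 endothelial markers Kdr passed, at 1.17 (SE 0.30, limma adjusted p = 0.0248), with sums of 15.8 to 22.3 in PRH-labelled tumours and 7.46 to 15.3 in controls. The signals of that probe before scaling overlapped, and the second Kdr probe, well above background on every array, differed by -0.48 and was lower in every PRH-labelled tumour than in every control before scaling. Trp63, the epithelial stem cell factor, differed by 0.23 (SE 0.11) after scaling. The signal of this probe, its brightest, was lower before scaling, at 6745 to 7767 in PRH-labelled tumours and 8567 to 10297 in controls, without the swings of the keratins. The second Trp63 probe, well above background on every array, differed by 0.67, with overlap. It read 231, 169, 160 and 136 in the PRH-labelled tumours, against 194, 316, 37.1 and 306 in the controls. After scaling, PRH-labelled 5 was the lowest of its group for that probe and control 5 the highest control. Over all these lists, 16 of 95 tested genes outside the 40 passed as higher (16.8%) and 5 as lower (5.26%), against 17.2% and 8.67% of all items. With mouse number as a block, Krt6b, Krt16, Smpd1, Ctsd and Serpinb2 no longer passed, with limma adjusted p-values of 0.0690, 0.0593, 0.0741, 0.0592 and 0.0700. Of the 17 alternatives, Krt6b lost its call in 13, Krt16 in 11, Krt18 in 10, Kdr in 9 and Krt14 in 2. The part of keratinocyte content in the differences of the envelope genes was not tested.

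**Figure D5:**
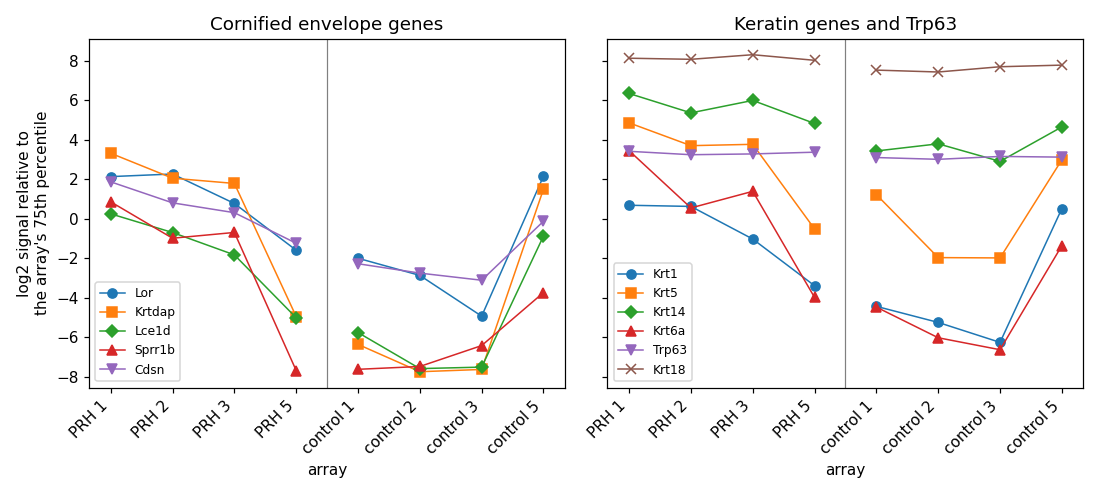
Log2 signal relative to the array's 75th percentile (y axis) on each array (x axis, PRH-labelled left of the line, controls right) for 5 envelope and junction genes (left panel) and for keratin genes and Trp63 (right panel); lines join arrays of a group only to guide the eye. Krt1, Krt5 and Krt6a drop at PRH-labelled 5 and climb at control 5 as the envelope genes do, whereas Krt18 and the brightest Trp63 probe, the one drawn, stay nearly level.

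Brightness also moved with the differences. Over all tested items the median difference was 0.91 in the dimmest of 10 equal bins by mean level, 0.50 in the fifth, between -0.14 and -0.03 in the seventh to ninth and 0.07 in the brightest, and of the 31 tested genes 5 lay in the dimmest bin, 7 in the seventh to ninth and 1 in the brightest. The median of the 31 tested genes, 2.50, was above each of these. How much of it comes from dim readings was not tested.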

How the data were processed

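Expression was measured on 1-colour arrays of 8 tumours, 4 PRH-labelled and 4 control, 1 sample per array. The deposited files hold spot intensity values on a linear scale, made with Agilent Feature Extraction 10.7.3.1 per the file headers (9.1 per the submitters' processing notes), on a design placed on mm9 per the file headers. The processed signal is already background-corrected per the file headers. A table of intensity values normalised by the authors in R, per the labels, served as an alternative; its array medians were 124 to 126, it is linear and ranks within an array as the scanner values do (Spearman 0.989 to 0.995), and its background correction and centring are not given in the sources used here.

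From these, log2 of the processed signal minus the log2 75th percentile over 59305 non-control spots was computed, spots of a probe were averaged, and a gene was read by its brightest probe. Of 55681 probes, 26582 had a symbol through their accession. A probe was tested if well above background on at least 4 of 8 arrays. limma 3.58.1 in R 4.3.3 compared the groups with Benjamini-Hochberg adjustment over 34543 items at a threshold of 0.05, after a check of the fit on simulated data. All 8 arrays lay on 1 slide and in 1 scan, and no spot was saturated. The number of arrays limits the precision.

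The 41 symbols, their roles and all gene lists were chosen with earlier results of these data known. Per-array values are given for the listed genes that passed or did not overlap and for the largest difference in each role, with Lor, Lce3a, Sprr1a, Sprr1b, Sprr2a1, Sprr2e, Flg2, Casp14, Krt6a, Trp63, Elovl4, Crct1, Calm4, Krt2 and Cdh5 added after their values were seen; of the other lists the genes that passed are named, except for 1 result not reported here, with Krt1, Krt5, Krt10 and Krt14. Arrays of the same mouse number deviated together from their group means (r of 0.20, 0.44, 0.67 and 0.27 for numbers 1, 2, 3 and 5). PRH-labelled 5 nevertheless correlated best with control 2, and the labels do not say whether a shared number is a shared animal. Mouse number also followed slide row, so a shared number and a shared row cannot be told apart, here or in the block fit. The reported fit took the samples as unpaired. Mouse number was used as a block in an alternative and for the differences within numbers. Alternatives were 3 other scalings, the authors' values, 2 filters, the mean of a gene's probes, mouse number as a block, and each array left out. The background alternative used normexp on the median spot signal with offset 50, and the mean spot signal was not used here.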

Additional observations from a re-analysis of the deposited data

Results flagged for a closer look

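Among 128 gene and group combinations, 9 had an array far from the other 3 of its group, by the gap to the nearest array as a share of the group's range. Chance alone flags about 1 in 20 such groups. Of the 9, 5 were control 5, all high. On the relative log2 scale it read 1.49 for Krtdap, against -7.74 to -6.36 for the other controls. It read -5.00 for Hrnr, against -7.75 to -7.62, -1.004 for Lce1b, against -5.91 to -5.31, -4.55 for Lce1h, against -7.80 to -7.40, and -5.91 for Sprr2d, against -7.84 to -7.66. PRH-labelled 1 read -0.50 for Trex2, the other tumours of its group -2.45 to -2.16. PRH-labelled 5 was low for Ppl, at 1.94 against 2.11 in each of the others. Control 3 read -7.47 for Rptn, against -7.63 to -7.61, and control 1 read -6.49 for Sprr3, against -7.89 to -7.82; neither probe was well above background on any control.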

How the results depend on the processing

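Of the 31 tested genes, 5 passed as higher in the reported fit. With normexp and quantile normalization, quantile normalization alone, median centring and the authors' deposited values, 2 passed each time, Cnfn and Trex2, against 3574 items higher and 4559 lower, 4144 higher and 4649 lower, 2801 higher and 8044 lower, and 3666 higher and 4392 lower (5938 and 2996 as reported). Each of these fits held the same 34543 items. The median over all items moved from 0.29 to 0.05, 0.06, -0.20 and 0.06. Median centring left 5 genes of the other lists higher and 10 lower, against 16 and 5; without the filter 8 were higher. In the same order, the difference of Sprr2a1 was -0.10, -0.25, -0.41 and -0.093, that of Casp14 -0.27, -0.42, -0.48 and -0.33. Tgm1 turned to -0.11 with quantile normalization and -0.20 with median centring, and Tgm3 to 0.16 with normexp, 0.036 with quantile normalization, 0.18 with the authors' values and 0.57 as the mean of its probes. Smpd1 and Krt10 turned to -0.063 and -0.32 with median centring, and Ctsd to -0.065 as the mean of its probes.

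With mouse number as a replicate block, 4 of the genes and 9283 items passed as higher, and beside the calls named above no reported gene lost its call. Leaving out single arrays gave 1 to 14 of the genes, 4152 to 6688 items higher and 1536 to 4779 lower, and 5 to 16 higher and 4 to 8 lower in the other lists. Differences then ranged from -0.33 to 0.023 for Tchh, -0.25 to 0.14 for Tgm3, -0.19 to 0.13 for Casp14 and -0.17 to 0.83 for Krt10. Without mouse number 5, chosen after seeing the data, 1 of the genes passed, 7 items were higher and 1 lower, and 1 gene of the other lists was higher and 0 lower. In no alternative did one of the genes pass as lower (limma). The filter on all 8 arrays left 17 of the genes, 4 of them higher, when 5176 of 27431 items were higher. Without a filter Sprr2e and Sprr2h passed besides Cnfn and Trex2. Dim signal limits most of the LCE and SPRR readings on the 4 low arrays, and the causes of these changes were not tested.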
